A study of Mus musculus with 36 samples.

Results

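The adult male comparison set the whole brains of 3 Chd8+/S62X males (HT, heterozygous for the mutant allele) against those of 3 wild-type males (WT), all C57BL/6 mice at postnatal day 80 (P80). These 6 libraries were taken by their sample labels from the 36 of the series, which covers both genotypes and both sexes at P0, P25 and P80 with 3 mice in each of 12 groups. RNA was sequenced once per brain, and genes were counted as members when their mean over the 6 libraries was at least 10, which kept 18092 of the 29799 genes in the table. Apart from Chd8 genotype the labels give the HT and WT males no difference: both carry the same strain, age, sex and tissue labels and neither received a treatment. Whether mice shared a litter is not given in the sources used here.

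CHD8 is a chromatin remodeler of the CHD family, a nuclear ATPase that binds near active promoters, interacts with β-catenin and represses Wnt target genes. Loss of 1 copy of the human gene is among the best established genetic causes of autism spectrum disorder (ASD). The S62X allele carries a human nonsense change that truncates the protein near its N-terminus. The mouse codon that the name of the allele points to is shown because it is the position at which the mutant reading frame ends. In the GENCODE vM21 annotation (GRCm38), codon 62 encoded serine in both full-length Chd8 coding sequences, each of 2582 residues, and it lies in the coding exon that holds the start codon, at chr14:52237387-52237389 on the minus strand. The stretch below is the reference sequence at chr14:52237375-52237401, written 5′ to 3′ on the coding strand, with the serine codon in capitals.
Chd8 codon 62: gtggggaattcaTCAgcaagtgacctg
The table holds 1 value per gene and library, so the mutant and the normal allele were measured together.

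All values below are estimated read counts that the authors had normalized with DESeq2, and fold changes are differences of log2(value + 1), HT minus WT, unless stated otherwise. Library totals on this normalized scale were 35125412, 34842633 and 35417190 in HT 1 to 3 and 35721750, 35487914 and 35699132 in WT 1 to 3. All 3 HT totals lay below all 3 WT totals, with a mean difference of -1.43%. The raw read depth is not known from these values. Between any pair of the 6 libraries, the correlation of log2 values over the genes tested ran from 0.986 to 0.990. The Y-linked genes Ddx3y, Uty, Kdm5d and Eif2s3y were measured in all 6, with Ddx3y between 1707 and 2051, and the X-inactivation transcript Xist stayed between 2.50 and 10.4, as the male label has it. Defining transcripts of brain tissue were abundant in every library: the neuronal synaptic gene Snap25 was at 79798 to 84620, the astrocyte glutamate transporter gene Slc1a2 at 67137 to 73152 and the myelin gene Mbp at 134882 to 172323.

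Some libraries stood apart in single gene groups. HT 1 held the lowest level of most spinal cord and hindbrain genes, such as Hoxa5 at 12.2 against 66.7 to 128 in the other 5. HT 2 held the pituitary hormone transcripts Gh at 2640 and Prl at 607, where the other 5 had 3.36 to 160 and 1.14 to 37.6. In WT 2 the adult β-globin transcript Hbb-bs was lowest, at 2871 against 4731 to 5274. WT 1 had the mitochondrial transcript mt-Co2 at 177563, against 20537 to 61124 in the others, and also the highest summed level of ribosomal protein genes, at 420537 against 340414 to 394748. Beside the gene lists that these libraries touch, values are given further on with and without them. In bulk brain libraries, fewer cells of a type and less RNA per cell cannot be told apart, and the same holds for how much of a region each dissection included.

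Chd8 itself was higher in the mutants. Its normalized values were 5149, 5069 and 4626 in HT 1 to 3 and 3571, 3743 and 3375 in WT 1 to 3. The lowest HT library therefore lay above the highest WT library. The means were 4948 ± 282 in HT and 3563 ± 184 in WT (SD, n = 3 each), a value 38.9% higher in HT. On the log2 scale Chd8 rose by 0.47 (SE 0.059, 95% interval 0.34 to 0.60, adjusted p = 0.0410, limma with Benjamini-Hochberg adjustment over all genes tested). Leaving out any single library kept the difference between 0.44 and 0.52, but the adjusted p then exceeded 0.05 in each case. The call was also lost with a pseudocount of 0.1 or 10 (adjusted p = 0.0673 and 0.0517), with quantile normalization (0.0623), with the replicate block (0.117) and in 1 model of all 36 libraries (0.99996). An exact two-sided permutation test of Chd8 alone gave p = 0.1, the smallest that 3 against 3 allows. Chd8 (ENSMUSG00000053754) spans chr14:52198151-52257780.

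**Figure D1:**
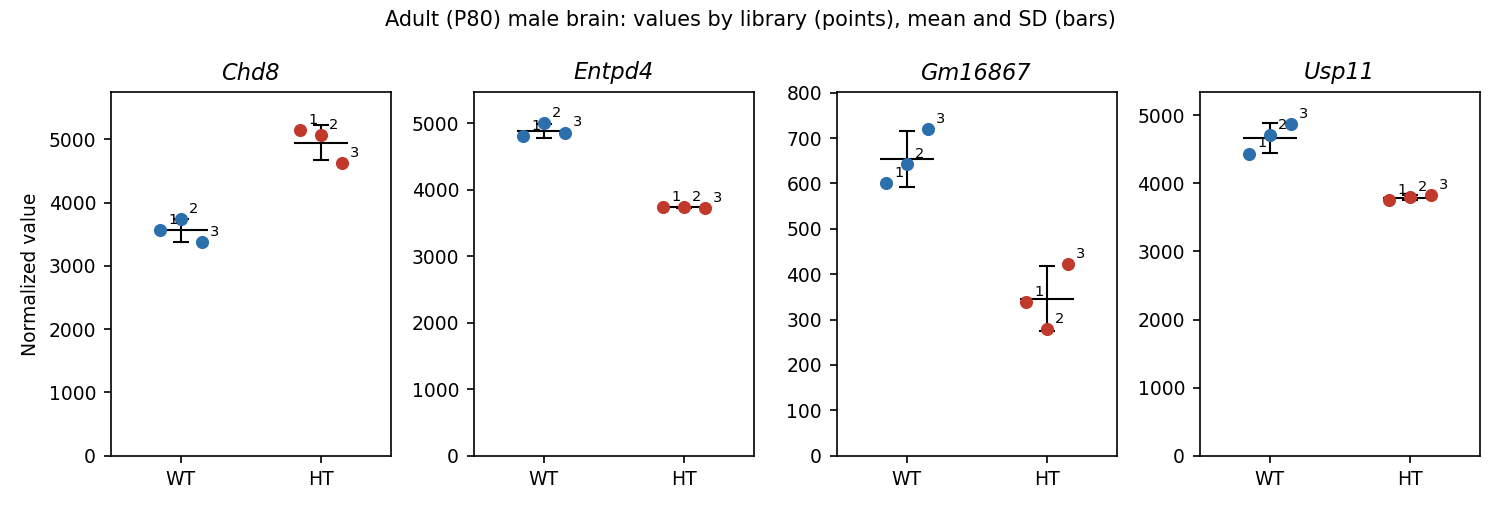
Normalized values (y axis, linear from 0) of Chd8, Entpd4, Gm16867 and Usp11 in the 3 WT (blue) and 3 HT (red) P80 male libraries. Points are libraries with their replicate number, horizontal bars are means and error bars are SD. In each of the 4 genes the HT and WT points do not overlap, with Chd8 higher in HT and the other genes lower.

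Differentially expressed genes (DEGs) at an adjusted p under 0.05 numbered 3 of 18092, or 0.0166%: Chd8 and 4930404A12Rik were higher in HT and Entpd4 was lower. Of these, 4930404A12Rik passed the minimum mean of 10 only through its HT values. Without 1 library the count was 0 to 3: it was 0 without HT 1, HT 3 or WT 2, and without HT 2 or WT 3 the 1 and 2 genes called were other genes. It was also 0 with a pseudocount of 0.1 or 10 and with quantile normalization. The replicate block and 1 model of all 36 libraries called 0 genes as well. At an unadjusted p under 0.05, 372 genes were higher in HT (2.06%) and 459 were lower (2.54%). The genotypes did not overlap for 1726 genes (9.54% of those tested), 723 of them higher in HT and 1003 lower. The median log2 fold change over all genes was -0.0093 and 90% of genes lay between -0.29 and 0.35. For 87.1% of genes the estimated difference was smaller than 1.2-fold. The data bounded most genes closely: for 13547 of the 18092 genes (74.9%) the 95% interval of the difference lay within 1.5-fold in either direction. The p-values measure the spread between 3 brains of each genotype.

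**Figure D2:**
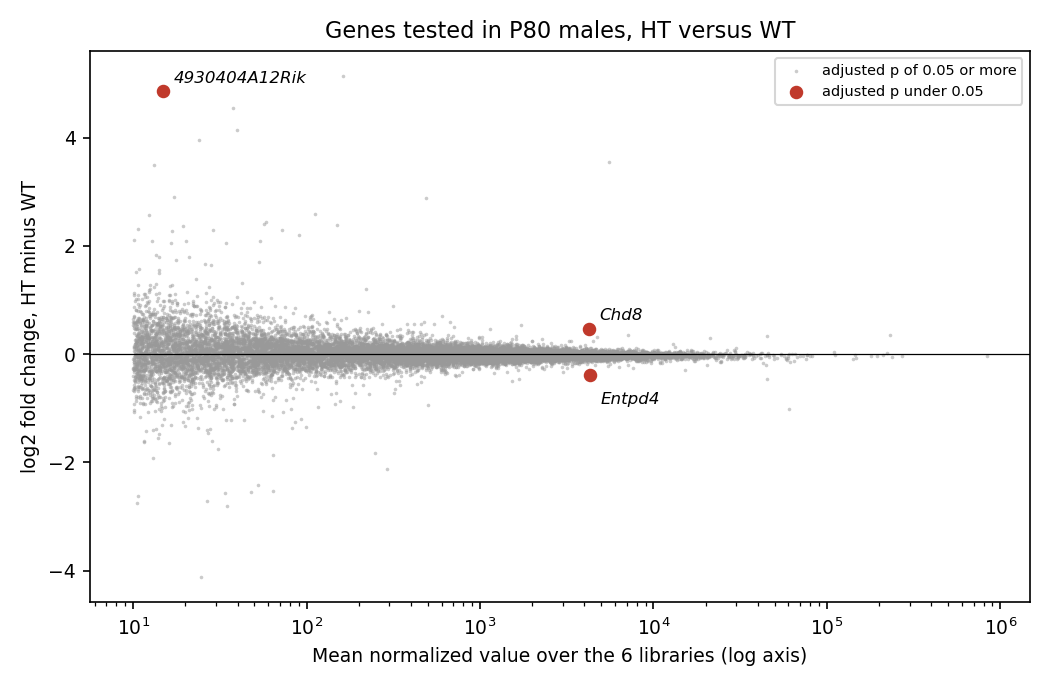
Log2 fold change, HT minus WT (y axis), against the mean normalized value over the 6 libraries (x axis, log scale) for the 18092 genes tested in P80 males. Red points are the 3 genes with an adjusted p under 0.05; the other genes are grey and spread more widely at low values.

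Entpd4, which encodes an ectonucleoside diphosphohydrolase of intracellular membranes that splits nucleotides, was the gene with the smallest p-value. Its values were 3738, 3734 and 3726 in HT 1 to 3 and 4800, 4998 and 4856 in WT 1 to 3. The 3 HT values were nearly the same and all lay below the WT values. Means were 3733 ± 6.03 and 4885 ± 102 (SD, n = 3 each), a difference of -23.6%. Entpd4 fell by 0.39 on the log2 scale (SE 0.046, 95% interval -0.49 to -0.29, adjusted p = 0.0377). That call was lost in 5 of the 6 fits without 1 library (adjusted p = 0.0835 to 0.223) and kept without WT 1, and it was lost with a pseudocount of 0.1 or 10 (adjusted p = 0.0673 and 0.0517). Quantile normalization (limma, adjusted p = 0.0567), the replicate block (0.203) and 1 model of all 36 libraries (0.99996) also ended the call. Entpd4 lies at chr14:69337174-69367270, 17.1 Mb from Chd8 on the same chromosome. All of the distinct 31-base words in the Entpd4 transcripts also occur in the transcripts of its annotated copy Entpd4b, which has no row in the table. The values listed for Entpd4 therefore cannot be told apart from those of Entpd4b.

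A second gene over the same duplicated stretch, annotated as protein-coding, had the same sign. Gm16867 (chr14:69363504-69503362), which overlaps the end of Entpd4 on the opposite strand, had 338, 279 and 421 in HT 1 to 3 and 600, 642 and 720 in WT 1 to 3. Every HT value lay under every WT value. The log2 difference was -0.93 (SE 0.136, adjusted p = 0.128), the fourth smallest p-value of all genes, without passing the threshold. Of its 31-base words, 26.3% also occur in Entpd4 and 88.0% in Gm27177, another gene of the stretch, chosen here after its values were seen. Gm27177 had 24.4, 120 and 38.3 in HT and 226, 92.6 and 92.0 in WT, which overlap. The sum of Gm16867 and Gm27177 did not overlap, at 362, 399 and 460 in HT against 826, 735 and 812 in WT.

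None of the genes next to Chd8 passed the threshold. The 3 nearest tested genes on each side were Hnrnpc, Rpgrip1 and Supt16 on one side and Gm43766, Rab2b and Tox4 on the other, and the genotypes overlapped in all 6. Supt16, a subunit of the FACT histone chaperone, had 2286, 2259 and 2148 in HT and 2161, 2365 and 2366 in WT, with a log2 difference of -0.04 (SE 0.058). Tox4, at 2563 to 2656 in HT and 2506 to 2695 in WT, differed by 0.01 (SE 0.052), and its sign turned without WT 1. Among the 129 tested genes within 5 Mb of Chd8, 3 were higher and 2 lower at an unadjusted p under 0.05 and none passed the adjusted threshold. Non-overlapping genotypes made up 7.75% of these genes, 9.73% of the 329 genes within 20 Mb and 14.2% of the 318 genes farther away on chromosome 14, beside 9.54% of all genes.

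**Figure D3:**
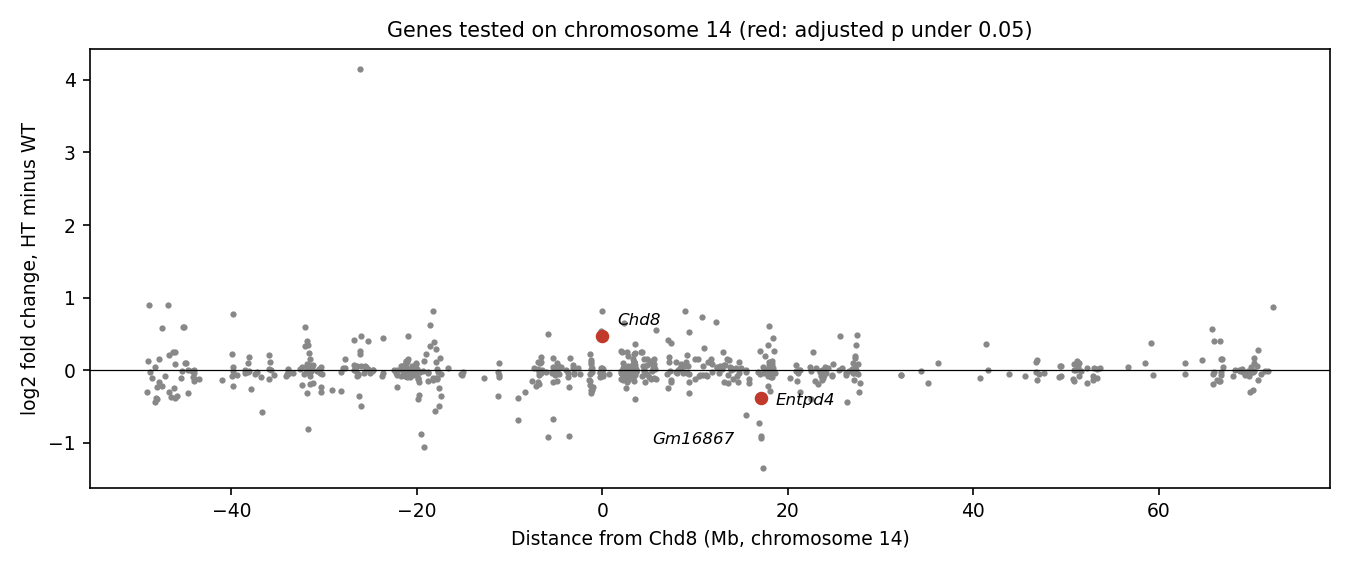
Log2 fold change, HT minus WT (y axis), of each tested gene on chromosome 14 against its distance from Chd8 in Mb (x axis; negative values lie toward the start of the chromosome). Red points are Chd8 and Entpd4, the genes of the chromosome with an adjusted p under 0.05; Gm16867 lies next to Entpd4, at -0.93.

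The remaining DEG, 4930404A12Rik, was a gene of very low level at chr5:124721997-124725079. It was at 16.2, 39.7 and 33.5 in HT 1 to 3 and was listed at 0 in all 3 WT libraries, so no fold is given. Its mean reached the minimum of 10 only through the HT libraries, and not without HT 2, so its place among the DEGs is given as a description. Of its 31-base words, 84.3% also occur in Atp6v0a2, which encodes a proton pump subunit. Atp6v0a2 overlapped between genotypes, with 2866 to 3197 in HT and 2909 to 3080 in WT. In the P80 females 4930404A12Rik averaged 24.4 ± 22.1 in HT and 13.0 ± 22.5 in WT (SD, n = 3 each), and the groups overlapped. In the P25 males it averaged 33.9 ± 34.6 in HT and 51.6 ± 7.96 in WT.

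Below the DEGs, genes were ranked by p-value in each direction among those with a mean of at least 50 in both genotypes, no overlap between genotypes and a name other than Gm or Rik. The ranking gave 12 genes higher in HT, led by Chd8, and 12 lower, led by Entpd4. The other 22 did not pass the adjusted threshold, so their values are given as measurements. Ppcdc, which acts in coenzyme A synthesis, had 524, 544 and 481 in HT and 388, 414 and 393 in WT, a log2 difference of 0.37 (SE 0.084). Csf2ra, the α subunit of the GM-CSF receptor, had 1448, 1350 and 1187 in HT and 823, 979 and 1107 in WT, a log2 difference of 0.46 (SE 0.107). In both genes the lowest HT library was still above the highest WT library. Pi4kb, a phosphatidylinositol 4-kinase of the Golgi, had 1832, 1891 and 1683 in HT and 1502, 1304 and 1477 in WT. Ace, the angiotensin-converting enzyme that is also a marker of the choroid plexus, had 1085, 1225 and 1098 in HT and 937, 864 and 915 in WT.

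The other 7 genes on the higher side covered a wide range of levels. Slc26a8, an anion transporter known from sperm, had the largest log2 difference of the 12, 0.64 (SE 0.155), with 162, 154 and 213 in HT and 105, 122 and 108 in WT. BC025920 differed by 0.56 (SE 0.132), and 58.4% of its 31-base words occur in Gm26896. Zfp28, a KRAB zinc finger gene, differed by 0.47 (SE 0.116), and Pum3, an RNA-binding protein of the nucleolus, by 0.32 (SE 0.076). Med17, a Mediator subunit, differed by 0.30 (SE 0.077), and Depdc5, a GATOR1 subunit that restrains mTORC1, by 0.23 (SE 0.060). Mt-Nd4l, a complex I subunit encoded by the mitochondrial genome, had 7202, 8050 and 8693 in HT against 6642, 5971 and 6074 in WT (mt-Nd4l log2 difference 0.35). However, 98.9% of the 31-base words of mt-Nd4l occur in its nuclear copy Gm10222, which had 18280, 19591 and 18539 in HT and 22532, 24426 and 18208 in WT. The sum of mt-Nd4l and Gm10222 overlapped between genotypes, at 25481 to 27641 in HT and 24282 to 30397 in WT.

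On the lower side, Usp11 followed Entpd4 among the genes ranked, with Gm16867, described above, between them by p-value. Usp11 (chrX:20703906-20720539) encodes an X-linked deubiquitinase and had 3752, 3798 and 3823 in HT and 4437, 4709 and 4870 in WT. All 3 HT values lay well under the lowest WT value, and the log2 difference was -0.30 (SE 0.051, adjusted p = 0.361). In a single model of all 12 P80 libraries, male and female, the same Usp11 difference passed the threshold (limma, adjusted p = 0.0153). It did not pass in 1 model of all 36 libraries, which called 0 genes. Col3a1, a fibrillar collagen, had 112, 114 and 79.6 in HT and 191, 216 and 168 in WT, a log2 difference of -0.92 (SE 0.170). Naa35, a subunit of the NatC N-terminal acetyltransferase, had 1416, 1308 and 1089 in HT and 1926, 1752 and 1647 in WT, a log2 difference of -0.49 (SE 0.095).

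Among the others on this side, Tmprss5, a transmembrane serine protease, had the largest log2 difference, -1.02 (SE 0.221), with 42.2, 69.4 and 50.9 in HT and 134, 93.7 and 101 in WT. Ston1, an endocytic adaptor, differed by -0.98 (SE 0.203) and the clustered protocadherin Pcdha11 by -0.74 (SE 0.140). The table holds another row under the symbol Pcdha11, which differed by -0.17 (SE 0.139) and overlapped between genotypes, and 65.4% of the 31-base words of Pcdha11 occur in other genes. The nuclear pore subunit Nup160 differed by -0.55 (SE 0.118) and the glutathione S-transferase Mgst1 by -0.49 (SE 0.101). Btg2, an antiproliferative immediate-early gene, differed by -0.39 (SE 0.082), the transcription factor Ebf3 by -0.36 (SE 0.086) and the repressor Zhx2 by -0.36 (SE 0.076).

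The P80 females and the P25 males share no library with the P80 males, so they give separate measurements of the same genes. In P80 females Chd8 was again higher in HT, by 0.36 (SE 0.046, adjusted p = 0.0405), and in P25 males by 0.70 (SE 0.063, adjusted p = 0.0162). In P25 females the Chd8 difference was 0.54 (SE 0.066, limma, adjusted p = 0.0723). At P0 it was 0.25 in males (SE 0.253) and 0.13 in females (SE 0.150), with overlapping groups. Entpd4 was lower by a log2 difference of -0.42 in P80 females (SE 0.047, adjusted p = 0.0328) and -0.40 in P25 males (SE 0.043, adjusted p = 0.0359). It was lower by -0.35 in P25 females (limma, adjusted p = 0.0723). At P0 the Entpd4 difference was -0.63 in males and -0.59 in females, without overlap and without passing the threshold. Usp11 was at 3955 ± 29.0 in P80 female HT and 5010 ± 31.2 in WT (SD, n = 3 each), a log2 difference of -0.34 that passed the threshold (adjusted p = 0.0252). In P25 males the Usp11 difference was -0.26 (SE 0.047, adjusted p = 0.878), and in the P0 males and females it was -0.02 and -0.08, with overlapping groups. In P25 females it was -0.36 (SE 0.043, limma, adjusted p = 0.0723), with every HT value below WT. Gm16867 differed by -1.20 in P80 females (adjusted p = 0.0333). In P25 males and females it differed by -0.78 and -0.60 (limma, adjusted p = 0.321 and 0.827), without overlap. At P0 Gm16867 averaged 42.8 in HT and 104 in WT males, with overlap, and 4.32 and 84.9 in females, without overlap.

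The 24 ranked genes were divided elsewhere. In P80 females 13 of them had the same sign, 9 of them at an unadjusted p under 0.05, where 11.4% of all genes tested in both sexes had such a p in P80 females in either direction. In P25 males 17 had the same sign, 7 of them at an unadjusted p under 0.05, beside 3.47% of all genes. Over the 5 other HT and WT comparisons of the series, 7 of the 24 kept their sign in all 5: Chd8, Csf2ra and BC025920 on the higher side and Entpd4, Usp11, Pcdha11 and Zhx2 on the lower side. Pi4kb and Ebf3 had the opposite sign in all 5. Of the 7, BC025920 and Pcdha11 were without overlap in only 1 of the 5 each. Among the 24, only Chd8, Entpd4 and Usp11 passed the adjusted threshold in any of the 5. The share of all genes that kept their sign is not given here, so these same-sign counts have no background beside them. Col3a1 had a log2 difference of 1.12 in P80 females (SE 0.436), opposite to the males. Over all genes, the log2 fold changes in P80 males correlated with those in P80 females at r = 0.124 and with those in P25 males at r = 0.099, across genes, which are not independent replicates.

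**Figure D4:**
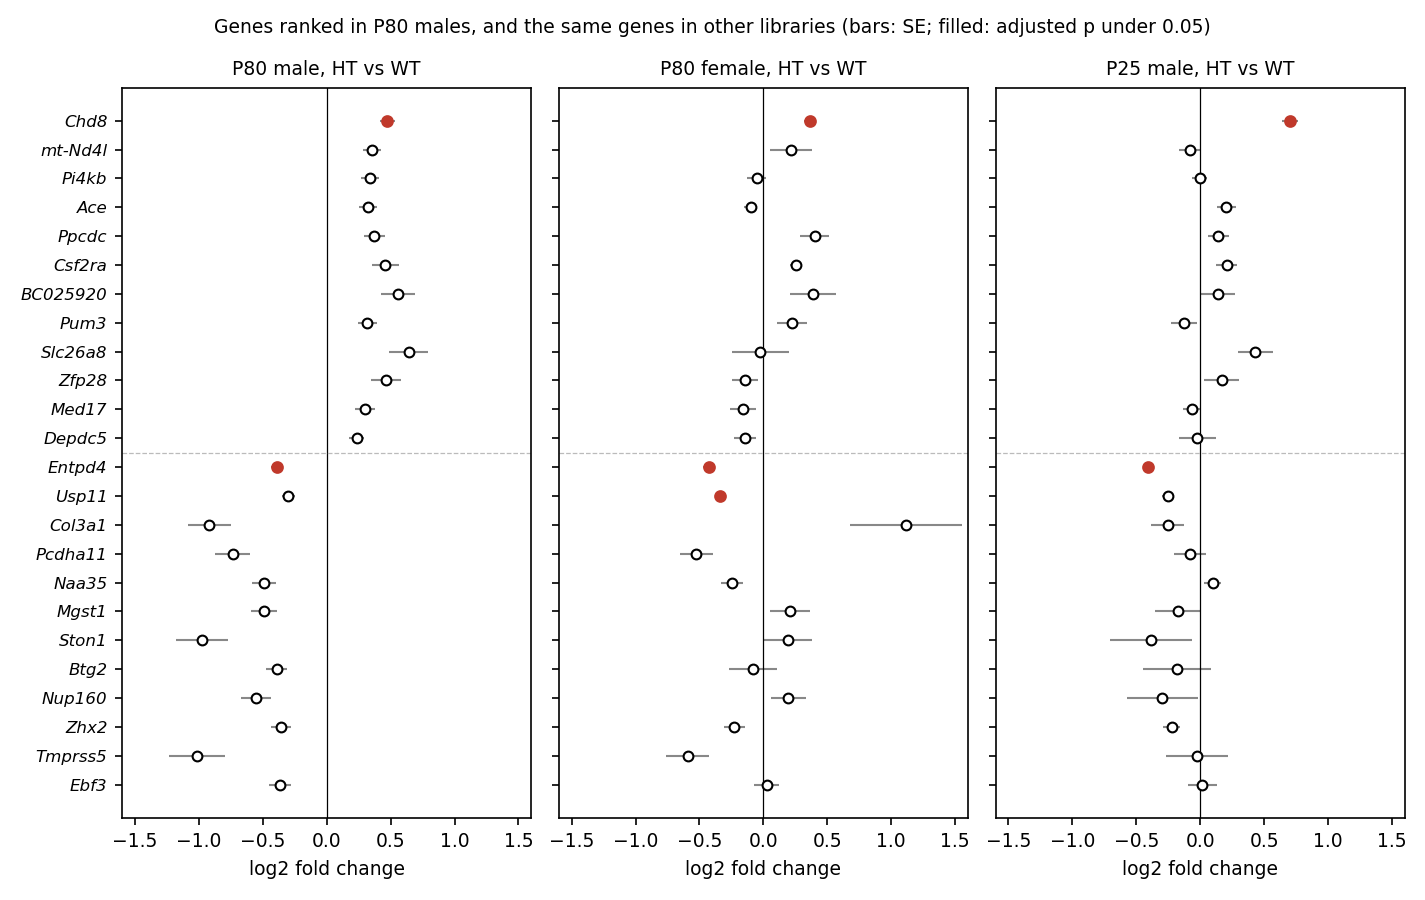
Log2 fold change, HT minus WT (x axis), of the 12 genes ranked highest and, under the dashed line, the 12 ranked lowest in P80 males, in P80 males, P80 females and P25 males. Points are limma estimates, bars are their SE and filled points have an adjusted p under 0.05. Chd8 and Entpd4 are filled in all 3 panels, and Usp11 in the P80 females.

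No gene passed the adjusted threshold in limma's test of whether the response to genotype differed between the sexes at P80 (0 of 18153 genes, smallest adjusted p = 0.512), and 895 genes, or 4.93%, had an unadjusted p under 0.05. For Chd8 the male response exceeded the female one by 0.11 (adjusted p = 0.911). The genes with the smallest p-values were Ace, Gpr137c and Klhl33, with a male response higher than the female one by 0.43, 0.40 and 0.45, and Sec11a, Rpl36a-ps2 and Mrps31, with interaction terms of -0.60, -1.31 and -0.40. Klhl33, on chromosome 14 at 50888582 to 50897507, had 939, 962 and 943 in male HT and 832, 769 and 845 in male WT (log2 0.22), against -0.23 in females. Rpl36a-ps2 is a processed copy all of whose 31-base words occur in Rpl36a. The same test between P25 and P80 males also called 0 of 18126 genes (smallest adjusted p = 0.523), with 445 genes, or 2.46%, at an unadjusted p under 0.05. For Chd8 that age term was -0.23, and it did not pass after adjustment. The genes with the smallest p-values in the age test were Cnnm2, Cfap74 and Pi4kb on the side higher at P80 and Naa35, Dusp5 and Bub1b on the other.

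Gene lists were described by their counts and medians, beside 2.06% of all genes higher and 2.54% lower in HT at an unadjusted p under 0.05 and a median of -0.0093. Those shares are for all 6 libraries. Without 1 library, 276 (without HT 2) to 552 (without WT 1) of the 18092 genes were higher at that p. The number lower ran from 333 (without HT 1) to 628 (without WT 1). Of the 9 CHD remodelers, 1 had such a p over all 6 libraries, Chd8, and the other 8 lay between -0.06 and 0.0067. Chd3 was below WT in all 3 HT libraries (log2 -0.06, SE 0.046), and without WT 1 a family member was lower at that p. Chd7, the family member mutated in CHARGE syndrome, had 2796, 2572 and 2182 in HT and 2445, 2688 and 2570 in WT, which overlap. None of the 11 CHD8 partners had such a p over all 6 libraries, and 8 were below 0. Without WT 2, 1 partner was lower at that p. The partners included the H3K4 methyltransferase core genes Wdr5, Ash2l and Rbbp5, the insulator protein gene Ctcf and Ctnnb1, which encodes β-catenin. For all 11 the 95% interval lay within 1.5-fold. Among 38 subunit genes of other chromatin remodelers, 1 had such a p, the helicase gene Ep400. It was at 4024, 4319 and 3575 in HT and 3647, 3534 and 3487 in WT, which overlap (log2 0.16, SE 0.067). Without HT 1 or HT 2 no member was higher at that p, and without WT 1, 2 were. The list median was -0.03, with 24 of 38 below 0. Without overlap, 3 members lay below WT, all SWI/SNF subunits, and none above, beside 9.54% of all genes in either direction.

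Wnt genes showed no shared direction. Of 67 tested members, 2 were higher and 1 lower in HT at an unadjusted p under 0.05, and the median was -0.0042. Without WT 2 the median was 0.02, with 38 of the 67 above 0, and without WT 3 it was -0.02. Among receptors, Ror2, which binds Wnt5a, had 66.9, 73.4 and 53.3 in HT and 39.3, 30.2 and 51.4 in WT. Among targets, Notum, a secreted enzyme that inactivates Wnt ligands, had 124, 108 and 148 in HT and 69.0, 98.0 and 99.7 in WT. The ligand gene Wnt3 was lower, at 265, 292 and 302 in HT against 336, 313 and 350 in WT. Ror2, Notum and Wnt3 did not overlap between genotypes, though none passed the adjusted threshold. Axin2, the classical Wnt target, had 956, 1032 and 905 in HT and 958, 1128 and 1051 in WT (log2 -0.12, SE 0.079, 95% interval -0.29 to 0.06), and β-catenin's own Ctnnb1 differed by -0.03 (SE 0.047).

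ASD risk genes, a hand-written list of 31 chromatin or transcription genes and 40 synapse or signaling genes, included none with an unadjusted p under 0.05. Their median was -0.02, and for all 71 the 95% interval lay within 1.5-fold. Without WT 1 the median was -0.04, with 59 of the 71 below 0 and 4 lower at that p, while without WT 2 it was -0.00055 with none. Over all 18092 genes, 628 were lower at that p without WT 1 and 428 without WT 2. Trio, which encodes a guanine nucleotide exchange factor, had the smallest p among the ASD risk genes, with a log2 difference of -0.12 (SE 0.060). Of 75 synapse genes, 3 were lower and none was higher at that p, with a median of -0.0088. Without WT 1 the synapse median was -0.03 with 5 lower, without WT 2 it was -0.0028 with 1 lower, and without HT 2 or WT 3 it turned to 0.0063 or 0.0042. Syt2, the fast calcium sensor of release at brainstem and other synapses, had 6814, 7308 and 6531 in HT and 7347, 8907 and 8597 in WT, which do not overlap (log2 -0.26, SE 0.073). Glra1, the adult glycine receptor subunit, had 248, 348 and 255.6 in HT and 314, 454 and 440 in WT (log2 -0.50, SE 0.164). Vamp1, a vesicle SNARE abundant in brainstem and spinal cord, differed by -0.13 (SE 0.056). Glra1 is also on the midbrain and hindbrain list, whose level varied with single libraries, and the part of those libraries in these synapse values was not tested. The excitatory postsynaptic genes of the list, Camk2a the most abundant, had a median of -0.0014 over 31 members, none with such a p.

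Midbrain and hindbrain markers were the list with the lowest median among those of 10 or more tested genes. Of 22 tested, 20 were below 0 in HT, 7 were lower at an unadjusted p under 0.05 and none was higher, with a median of -0.48. The 7 were the Hox genes Hoxa5, Hoxb3, Hoxb5 and Hoxb6, which pattern the hindbrain and spinal cord, Glra1, the glycine transporter gene Slc6a5 and the serotonin transporter gene Slc6a4. Slc6a5, the most abundant marker of the list, had 1117, 1774 and 1396 in HT and 1545, 2202 and 2089 in WT. Hoxb3 had 43.3, 73.1 and 46.0 in HT and 73.1, 124 and 95.04 in WT. In both genes HT 2 reached at least the level of WT 1. The list score, the mean deviation of its genes from their 6-library mean less the median over all genes, was -0.73, 0.06 and -0.06 in HT 1 to 3 and -0.03, 0.38 and 0.37 in WT 1 to 3, so the genotypes overlapped. Without HT 1 the median was -0.22 with 4 genes lower at that p, and without WT 2 or WT 3 it was -0.35 with 2. It was -0.65 with 7 without HT 2, -0.46 with 8 without HT 3 and -0.60 with 9 without WT 1. With all 6 libraries, 2 of the 22 were below WT without overlap and none above, beside 9.54% of all genes in either direction. With a minimum mean of 100, which drops the low Hox genes among others, the median was -0.20. Th and Tph2, which encode the enzymes of dopamine and serotonin synthesis and were chosen after their values were seen, differed by 0.03 and -0.0022. In the P80 females the list had a median of 0.01 and in the P25 males 0.15.

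Choroid plexus markers lay on the opposite side. Of 18 tested, 17 were above 0 and 6 were higher at an unadjusted p under 0.05, with a median of 0.27. The 6 were Ace, Enpp2, F5, Kl, Slc4a5 and Sostdc1. Ttr, which encodes transthyretin and is the most abundant marker, had 17893, 26116 and 26643 in HT and 21957, 18110 and 16511 in WT. HT 2 and HT 3 lay above every WT library and HT 1 lay within the WT range. Summed over the list, the level came to 33663, 45895 and 46092 for HT 1 to 3, against 38725, 33230 and 32056 for WT 1 to 3. The median was 0.47 without HT 1, with 12 genes higher at that p, and 0.18 without HT 2, with 1. Without HT 3 or WT 3, 2 genes were higher at that p, and without WT 2, 3. Without WT 1 the median was 0.36, with all 18 above 0 and 8 higher at that p. In P80 females the median was -0.10.

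Myelin genes lay slightly below the WT level in HT. Of 20 oligodendrocyte genes, 19 were below 0, 4 were lower at an unadjusted p under 0.05 and none was higher, with a median of -0.10. Gjc3, a gap junction gene of myelinating glia, had 2466, 2420 and 2385 in HT and 2750, 2732 and 2767 in WT, which do not overlap (log2 -0.18, SE 0.048). Apod, a lipid carrier, had 6562, 6694 and 6549 in HT and 7595, 6958 and 8175 in WT (log2 -0.20, SE 0.059). Cldn11 and Trf, which encode a tight junction protein of myelin and the iron carrier transferrin, were the other 2. Mbp, the most abundant member, had 143296, 136530 and 149341 in HT and 172323, 134882 and 145132 in WT, and its sign turned without WT 1. For each of the 20 the 95% interval lay within 1.5-fold. List scores were -0.04, -0.03 and -0.08 for HT 1 to 3, and for WT 1 to 3 they reached 0.10, -0.03 and 0.06, so HT 2 and WT 2 were nearly equal. Without WT 2, 8 of the 20 were lower at that p, as were 428 of all 18092 genes in that fit. Without any other single library, 3 or 4 of the 20 were. Without WT 1 the median was -0.07, with 17 of the 20 below 0. In P80 females the median was 0.04.

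Immediate-early genes, which neurons switch on with activity, leaned the same way. Of 26, 24 were below 0, 3 were lower at an unadjusted p under 0.05 and none was higher, with a median of -0.10. Btg2 had 588, 686 and 593 in HT and 801, 861 and 782 in WT, and Ccn1, a matrix protein gene, had 200, 183 and 199 in HT and 305, 216 and 264 in WT. Fosb, the third, had 497, 609 and 511 in HT and 588, 639 and 746 in WT, which overlap. List scores were -0.05, -0.02 and -0.08 for HT 1 to 3, and for WT 1 to 3 they reached 0.0029, 0.0082 and 0.14. Without WT 1, 9 genes were lower at that p, and without WT 2, 5. Of all 18092 genes, 628 and 428 were lower in these fits. Without WT 3 the median was -0.04 with 2 genes lower at that p. In P80 females it was -0.15 and in P25 males 0.08.

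Glucocorticoid-responsive genes had a median of -0.12, with 5 of 20 lower at an unadjusted p under 0.05 and none higher. Sgk1, a kinase induced by corticosterone, had 5752, 5368 and 6377 in HT and 7033, 6526 and 6926 in WT (log2 -0.23, SE 0.064). Mt2, Errfi1 and Zbtb16 did not overlap either, while Ddit4 did. Fkbp5 and Per1, well known members of this response, differed by 0.0094 and 0.01 and overlapped between genotypes. Without HT 1 or without WT 1, 1 of the 20 was lower and 1 higher at that p, while without HT 2 or HT 3 there were 3 and 8 lower. Microglial markers had 14 of 16 below 0 and a median of -0.11, with no member at that p, and the complement genes C1qa, C1qb and C1qc lay at -0.12, -0.13 and -0.17. WT 1 had the highest level of all 3 complement genes, and without WT 1 the median of the list was -0.02. Without WT 3, 5 of the 16 were lower at an unadjusted p under 0.05.

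**Figure D5:**
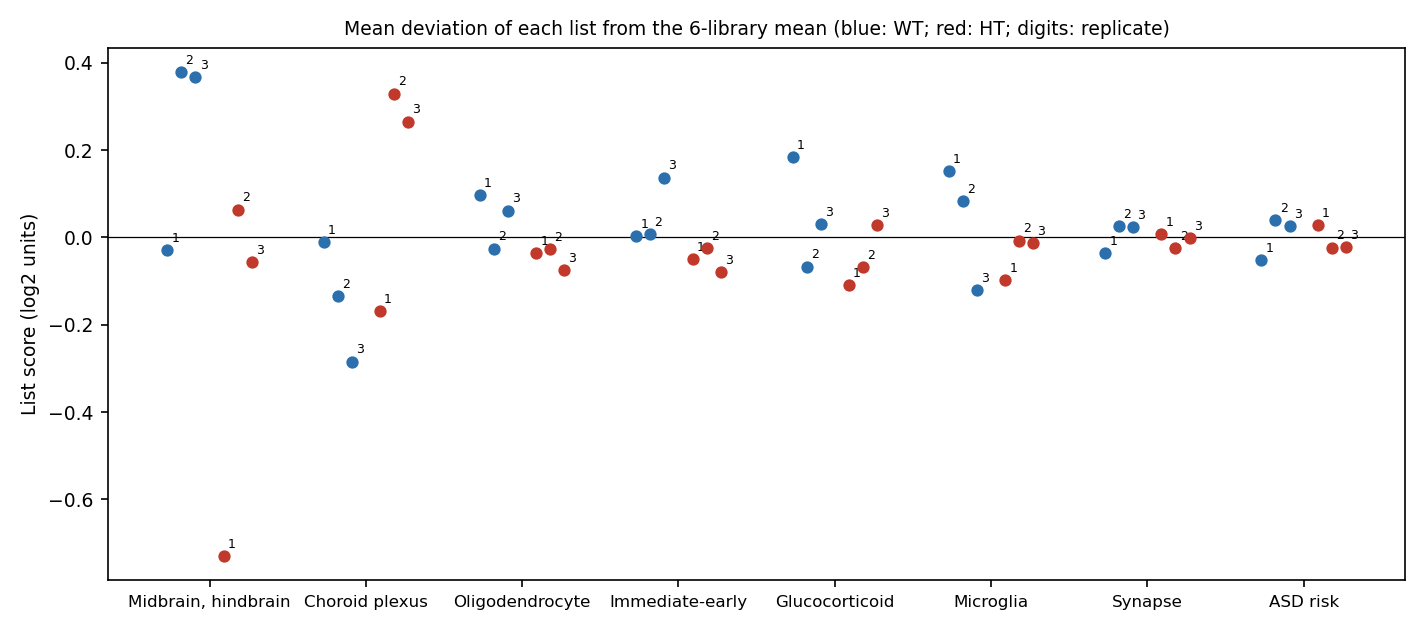
List scores in log2 units (y axis) of 8 gene lists in the 3 WT (blue) and 3 HT (red) P80 male libraries, numbered by replicate. A score is the mean deviation of the genes of a list from their mean over the 6 libraries, less the library's median over all genes. HT 1 is lowest in the midbrain and hindbrain list (-0.73), HT 2 and HT 3 are highest in the choroid plexus list (0.33 and 0.27), and the synapse and ASD risk scores lie close to 0.

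Over all 6 libraries, medians of the remaining cell markers were 0.02 for 14 excitatory neuron genes, -0.02 for 17 inhibitory neuron genes, -0.04 for 17 astrocyte genes, -0.02 for 11 oligodendrocyte precursor genes, -0.04 for 14 endothelial genes and 0.01 for 9 mural cell genes. Without 1 library the endothelial median stayed below 0, between -0.04 (without HT 2) and -0.0051 (without HT 3). Each of the other 5 turned its sign at least once. The astrocyte median ran from -0.07 (without WT 3) to 0.0088 (without WT 1), the precursor median from -0.07 (without WT 1) to 0.04 (without WT 2) and the mural median from -0.03 (without WT 1) to 0.07 (without HT 3). Slc17a6, the vesicular glutamate transporter gene of subcortical neurons, was at 2766, 2828 and 2934 in HT and 3052, 3322 and 3206 in WT (log2 -0.17, SE 0.053), without overlap. It was the only 1 of the 14 excitatory genes at an unadjusted p under 0.05, and 9 of the 14 were above 0. Slc17a6 is also on the diencephalic and olfactory bulb lists. Meningeal fibroblast genes had a median of 0.08 over 18 members: Efemp1 was at 489, 398 and 403 in HT and 356, 288 and 335 in WT, higher in HT where Col3a1 was lower. Without WT 2 the meningeal median was 0.16 with 5 genes higher at an unadjusted p under 0.05, and without HT 1 it was 0.13 with 2. It was 0.03 without WT 3 and 0.05 without HT 2, each with 1 gene higher at that p. Extracellular matrix genes had a median of -0.03 over 38 (-0.06 to 0.01 without 1 library). Ependymal genes had a median of 0.02 over 14 (-0.04 without HT 2 and 0.09 without WT 2), with Stoml3 and Cfap44 higher at an unadjusted p under 0.05.

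Among genes of regional identity elsewhere, medians were -0.01 for 14 telencephalic, -0.02 for 15 cerebellar, -0.07 for 20 diencephalic and 0.04 for 8 olfactory bulb genes. The telencephalic, cerebellar and olfactory bulb medians turned sign without single libraries, with ranges of -0.04 to 0.03, -0.04 to 0.01 and -0.02 to 0.10. Of the 20 diencephalic genes, 14 were below 0 and 2, Slc17a6 among them, were lower at an unadjusted p under 0.05. The diencephalic median was -0.03 without HT 1 and -0.09 without WT 1. Blood genes had a median of 0.31 over 6 tested members, all above 0, which was 0.09 without WT 2. With all libraries 1 of the 6, Hba-a1, was higher at an unadjusted p under 0.05. That number was 0 without HT 1, HT 3 or WT 2, 1 without HT 2, 5 without WT 1 and 4 without WT 3. Pituitary genes had a median of 0.16 over 6, which ran from -0.18 (without HT 2) to 0.57 (without HT 1). With a minimum mean of 100 that median was 1.27. The summed level of the list was 9191 in HT 2 against 5553 to 6259 in the other 5 libraries. Gh and Prl had log2 differences of 2.88 (SE 1.78) and 2.58 (SE 1.59), with HT 2 far above the other 5 libraries.

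Medians of the ribosome and energy genes turned on single libraries. Over all 6 they were 0.01 for 76 ribosomal protein genes, none of which had an unadjusted p under 0.05, and 0.0078 for 73 nuclear genes of oxidative phosphorylation, 1 of which was lower, Ndufs1. Without WT 1 the ribosomal median was 0.12, with all 76 genes above 0 and 24 higher at that p, and the oxidative phosphorylation median was 0.08, with 67 of 73 above 0 and 13 higher. Over all genes, 552 of 18092 were higher at that p in the same fit. Without HT 3, WT 2 or WT 3 both medians were below 0. The 15 genes of the mitochondrial genome had a median of -0.05 and took 5.65% to 7.10% of the library totals. That median was -0.13 with 5 genes lower without WT 3 and -0.0021 without WT 1. Mt-Co1, the most abundant, overlapped between genotypes at 762443 to 889357. The median was -0.02 for 19 clock genes and -0.02 for 12 reference genes, Gapdh among them with a log2 difference of 0.0094 (SE 0.050). Both medians turned sign without single libraries. The clock median ran from -0.04 (without WT 1) to 0.02 (without WT 3), the reference median from -0.06 (without HT 3) to 0.00068 (without WT 1). The 4 Y-linked genes had a median of 0.04.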

How the data were processed

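Whole brains of 3 HT and 3 WT males at P80 were analysed beside the other 30 libraries of the series. According to the methods and labels, polyA RNA was made into unstranded TruSeq libraries and sequenced in paired ends on a HiSeq 4000. Transcripts of GRCm38 were quantified with Salmon (1.1.0) and summed to genes, and the authors deposited a table of DESeq2-normalized values (DESeq2 1.26.0, R 3.6.2, per the labels). These deposited values are a normalized signal per gene, not whole counts, so the raw depth of each library is not known from them. The paper gives an average read depth. No column was without a sample. The table headings name the adult age differently from the titles, and samples were grouped by their titles.

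Here log2(value + 1) was fitted with limma (3.58.1, R 4.3.3; lmFit and eBayes with trend) in the 18092 genes whose mean over the 6 libraries reached 10, HT against WT, with Benjamini-Hochberg adjustment and a threshold of 0.05. The script was tested on simulated data. Interactions used 12 libraries each, with the same filter and pseudocount. Low genes have their fold changes understated by the pseudocount. Gene positions and shared 31-base words came from GENCODE vM21. Because libraries are unstranded, a gene and an overlapping gene on the other strand cannot be told apart where they share bases.

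Named genes were Chd8, Entpd4 copies, Y-linked genes, the 3 tested genes on each side of Chd8, every DEG, 12 genes per direction by p-value (mean at least 50 in each genotype, no overlap, no Gm or Rik name), each list's most abundant and smallest-p genes, and 3 genes per direction for each interaction test. Other list members, Gm27177, Gm10222 and Atp6v0a2 were chosen after their values were seen. Members and gene lists were chosen with earlier results of these data known. The lists held 790 genes, 771 of them tested. The main fit did not pair the libraries by replicate number. Alternatives were other filters, pseudocounts, scalings, weights, larger models, a replicate block and leaving out each library. No litter or batch is given in the sources used here, and p-values measure the spread between these mice.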

Additional observations from a re-analysis of the deposited data

How the results depend on the processing

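The count of DEGs in P80 males, 3 as reported, depended on the settings and the libraries. It was 6 with no filter on low values, the added genes being Gm10190, Gm13008 and Rpl14-ps1, all listed at 0 in the 3 HT libraries. It was 0 with a pseudocount of 0.1, with a pseudocount of 10, with quantile normalization, with the replicate block (692 genes at an unadjusted p under 0.05) and in 1 model of all 36 libraries. It was 2 with a minimum mean of 100, and 3 under median-of-ratios rescaling, array quality weights and robust moderation, in each case the same 3 genes. One model of the 12 P80 libraries also gave 3, with Usp11 (adjusted p = 0.0153, limma) in place of 4930404A12Rik. Leaving out 1 library gave 0 to 3: 0 without HT 1, HT 3 or WT 2, 1 without HT 2 (Gm21541), 2 without WT 3 (Gm9843 and Ptges3-ps) and 3 without WT 1 (Entpd4, 4930404A12Rik and Gm2260). The cause of these changes was not tested. In the replicate block and the larger models the balanced design fixes the difference of a gene, so only its p could change there. Chd8 was at 0.47 with either other pseudocount (adjusted p = 0.0673 and 0.0517), 0.49 with quantile normalization (0.0623), 0.47 with the replicate block (0.117) and 0.47 in the model of 36 libraries (0.99996), and 0.44 to 0.52 without 1 library (0.0658 to 0.267). Entpd4 was at -0.39 with either other pseudocount (0.0673 and 0.0517), -0.36 with quantile normalization (0.0567), -0.39 with the replicate block (0.203) and -0.39 in the model of 36 libraries (0.99996). Without 1 library Entpd4 lay between -0.40 and -0.37, and it passed the threshold without WT 1 alone. 4930404A12Rik lost its call under the same 5 settings, in the model of 12 libraries and without HT 1, HT 3, WT 2 or WT 3, and it fell under the filter on low values without HT 2 and with a minimum mean of 100.

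Same-numbered HT and WT libraries deviated together at r = 0.043, 0.084 and 0.019 across genes, while differently numbered ones ran from -0.067 to 0.021. Of the 6 libraries, 5 correlated best with their own number, WT 3 being the exception. The sources used here do not say whether replicate numbers mark pairs, and the main fit treated the libraries as unpaired. The replicate block, run for the P80 males and for the sex and age interactions, added no call to these. The sex interaction, 0 genes as reported, gave 0 to 2 without 1 library. The age interaction gave 2 with no filter on low values and 0 to 2 without 1 library. Of 104 named genes, 101 kept their sign in every alternative. Tox4 turned to -0.0012 with array quality weights and ranged from -0.016 to 0.036 without 1 library, Uty ranged from -0.061 to 0.071 (-0.012 without HT 3), and Mbp ranged from -0.15 to 0.031. Of 34 list medians, 16 kept their sign in every alternative, among them oligodendrocyte, immediate-early, glucocorticoid, choroid plexus and midbrain and hindbrain genes. The counts of list members without single libraries were chosen after seeing the data. With 3 mice per genotype, differences smaller than the interval of a gene were not detectable, and the raw depth of each library is unknown.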
